A study of Mus musculus with 13 samples.

Results

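The 4 genes described here, Camk2a, Camk2b, Camk2d and Camk2g, encode the alpha, beta, delta and gamma subunits of calcium/calmodulin-dependent protein kinase II (CaMKII). They were matched by gene symbol among the 32285 genes of the matrices, and all 4 were found. The family was selected on the ageing contrast, after an earlier look at these data had shown higher Camk2d in old than in young granule neurons. Ageing values of the 4 genes, and counts of them past a threshold, are therefore a description that supports nothing. Tests of the 4 genes are given only for dietary restriction. Tests of restricted against old ad libitum libraries share the latter with the ageing contrast, so they are not independent of the choice. The comparison between the restricted groups uses no ad libitum library.

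CaMKII is a holoenzyme assembled from many subunits through a shared association domain, and its kinase domain is held inactive until calcium-loaded calmodulin binds. Once active, neighbouring subunits phosphorylate each other, and the kinase then keeps part of its activity after calcium has returned to rest. In the hippocampus the alpha and beta subunits are the major forms of excitatory synapses, where the kinase is known for its part in long-term potentiation. The beta subunit binds actin filaments, the delta subunit is best known as the main form of the heart, and the gamma subunit has been described as a carrier of calmodulin to the nucleus.

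The 13 libraries came from the hippocampus of female mice of the hybrid strain C3B6F1 (spelled C3HB6F1 in the sample labels), taken whole and frozen, and RNA of single nuclei was sequenced from droplets. Young mice were 5 months old and fed ad libitum (n = 3), and old mice were 24 months old and fed ad libitum (n = 3), restricted from 20 months of age (acute restriction, n = 3) or restricted from 5 months of age (long-term restriction, n = 4). Restriction at 24 months had thus lasted for the late months of life in the first restricted group and for most of adult life in the second. The labels name no transgene or agent in any group, and they do not say whether a library held tissue of more than 1 animal, so that p-values measure the spread between libraries only.

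The matrices held 105759 barcodes and between 3.85e+07 and 8.05e+07 unique molecular identifiers (UMIs, each counting 1 captured RNA molecule) per library. After filtering, 98041 nuclei were grouped into 35 clusters, of which 19 were named from marker genes into 14 classes holding 77238 nuclei. Classes are written as X-like, because their names rest on markers alone. Granule-like (32449 nuclei), CA1-like (9281) and CA3-like (2553) neurons, which belong to the hippocampus, were all present. The 4 libraries numbered 1, which include 1 of each group, stood apart: oligodendrocyte-like nuclei made up 0.854% to 4.28% of their nuclei and 10.2% to 27.6% in the other 9 libraries. Results were therefore also computed without them. Any pair of libraries shared 4 to 40 barcodes, at most 0.471% of the smaller library.

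On GRCm38 the 4 genes lie on 4 chromosomes. Camk2a (ENSMUSG00000024617) spans chr18:60925618-60988152 on the plus strand and Camk2b (ENSMUSG00000057897) chr11:5969644-6066362 on the minus strand. Camk2d (ENSMUSG00000053819) spans chr3:126596302-126846326 on the plus strand, and Camk2g (ENSMUSG00000021820) chr14:20734875-20794088 on the minus strand. These spans cover introns and exons and measure 62.5, 96.7, 250.0 and 59.2 kb, so that Camk2d is the longest, longer than 97.6% of annotated genes. An antisense gene, Gm15551, overlaps Camk2d and was counted separately, with 6 UMIs over all granule-like nuclei. The sources used here do not give whether intronic reads or strand were used in counting.

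Camk2a and Camk2b were highest in the excitatory neurons of the dentate gyrus and the CA fields. Levels are in CPM, the UMIs of the gene divided by all UMIs of a class in a library on the usual CPM scale, as mean ± SD over libraries, and classes are compared within a gene only. Camk2a stood at 1194 ± 135 CPM in granule-like, 1121 ± 208 in CA1-like and 867 ± 149 in CA3-like nuclei (n = 13 each). It was at 471 ± 50.1 CPM in subicular or cortical excitatory-like nuclei (n = 12) and at 300 ± 37.4 in inhibitory-like nuclei (n = 13). The glial classes were lowest, with 75.4 ± 45.1 CPM in astrocyte-like, 68.7 ± 41.1 in microglia-like, 54.2 ± 21.9 in oligodendrocyte precursor-like and 50.5 ± 15.9 in oligodendrocyte-like nuclei. Among these classes the steps from CA3-like to subicular or cortical excitatory-like, from there to inhibitory-like and from there to astrocyte-like nuclei were larger than the summed SDs. The other neighbours did not differ beyond their spread. In the full order of 14 classes, small classes with wide spreads lie in between, and no neighbours there differed by more than their summed SDs.

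Camk2b followed a similar order with a clearer top. It reached 370 ± 32.9 CPM in granule-like nuclei, beyond the summed spread of CA3-like nuclei (246 ± 26.0), which came next. CA1-like nuclei held 207 ± 27.8 CPM, subicular or cortical excitatory-like nuclei 135 ± 13.6 and inhibitory-like nuclei 86.0 ± 8.60. Astrocyte-like (35.2 ± 17.3 CPM) and oligodendrocyte-like nuclei (33.3 ± 9.24) were lowest. Small classes gave wide values for both genes. Camk2a was at 600 ± 228 CPM in macrophage-like nuclei (n = 8) and 372 ± 300 in mural-like nuclei (n = 9), and 46.9% of the barcodes of the macrophage-like cluster had been scored as doublets before these were removed. The part of neuronal RNA in those values was not tested.

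Camk2d had a different order and was led by microglia-like nuclei. It stood there at 713 ± 62.7 CPM (n = 13), beyond the summed spread of fibroblast-like nuclei (384 ± 57.1, n = 9), the next class. The lowest, median and highest of the 13 microglia-like values were 600, 695 and 821 CPM, and the highest, of young library 1, rested on 20 nuclei and 21 Camk2d UMIs. Mural-like nuclei held 328 ± 49.3 CPM (n = 9), astrocyte-like nuclei 319 ± 30.9 and endothelial-like nuclei 222 ± 85.5 (n = 9). Inhibitory-like and oligodendrocyte precursor-like nuclei were level with each other at 163 ± 16.2 and 163 ± 17.4 CPM. Among the named excitatory classes it was lower, with 117 ± 38.4 CPM in granule-like, 106 ± 28.4 in subicular or cortical excitatory-like, 73.6 ± 39.0 in CA1-like and 45.02 ± 16.8 in CA3-like nuclei. These means pool young and old libraries, and the order of the first of these classes depends on age: in young libraries granule-like nuclei (52.3 ± 2.35 CPM) lay below subicular or cortical excitatory-like ones (81.7 ± 9.49), and over the old libraries the means were 137 ± 11.2 (n = 10) and 114 ± 28.2 (n = 9).

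Camk2g was led by astrocyte-like nuclei, with 493 ± 100.01 CPM and values from 325 to 685 over 13 libraries. The next class, subicular or cortical excitatory-like nuclei, held 127 ± 21.8 CPM and did not overlap with it. Granule-like (107 ± 13.9 CPM), inhibitory-like (106 ± 9.03) and microglia-like nuclei (94.4 ± 31.6) came below it and did not differ beyond their spread. Camk2g was lowest in CA1-like (48.9 ± 11.3 CPM), CA3-like (42.1 ± 9.34) and oligodendrocyte-like nuclei (35.1 ± 8.10). In the 4 libraries numbered 1 Camk2g in astrocyte-like nuclei ranged from 422 to 514 CPM, within the 325 to 685 of the other 9. Camk2d in microglia-like nuclei ranged from 689 to 821 CPM in the former, the highest being the value on 21 UMIs, and from 600 to 757 in the latter.

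**Figure D1:**
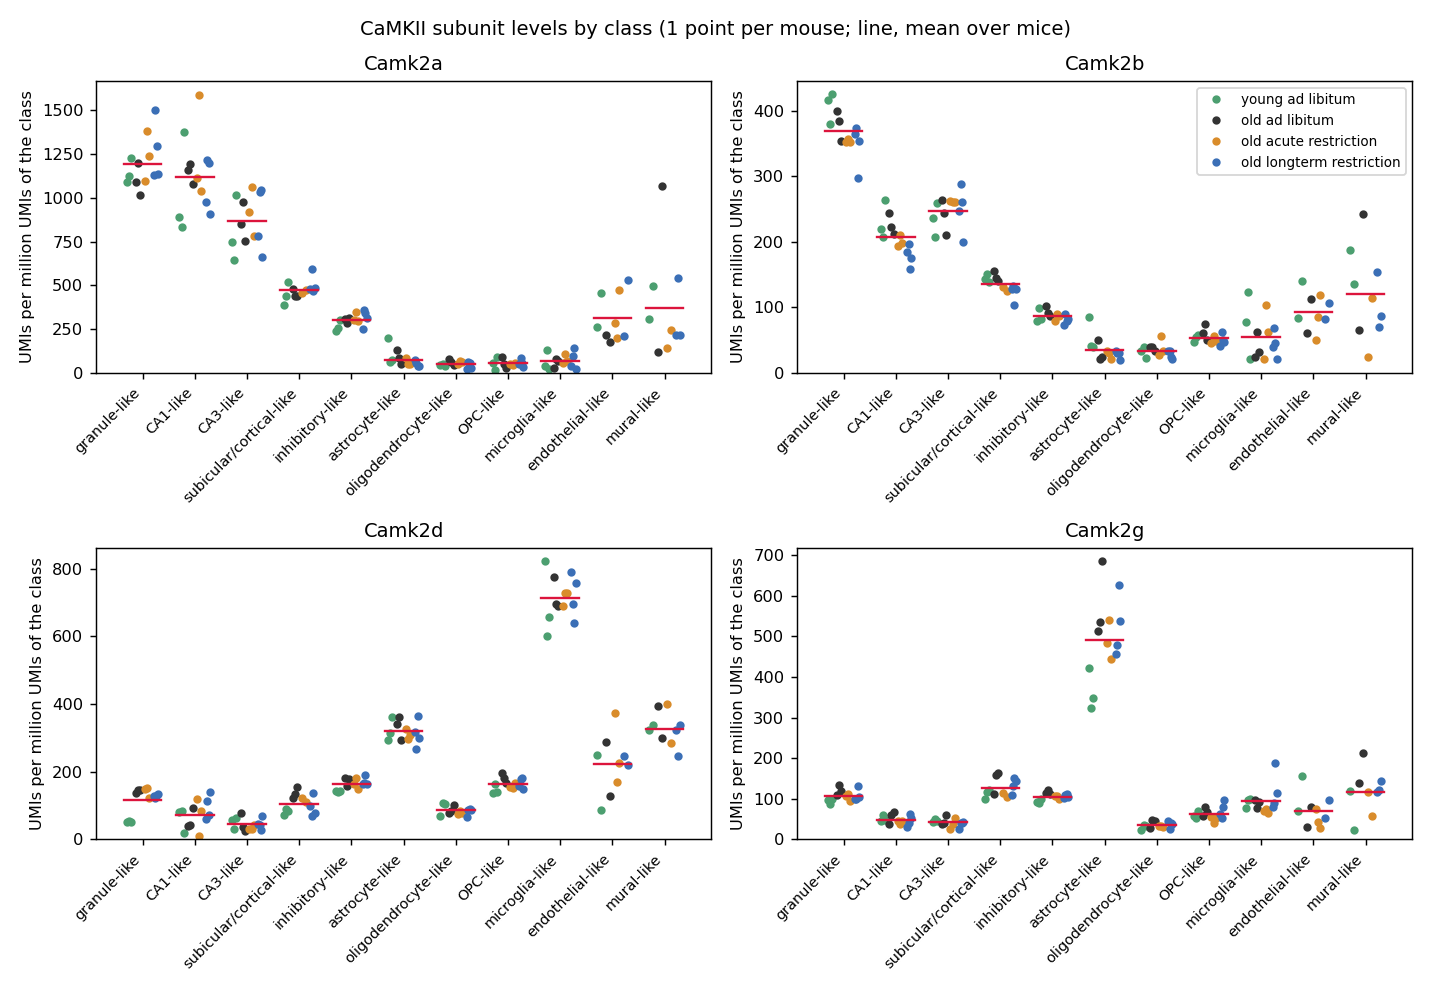
CaMKII subunit levels by class, 1 panel per gene: points are single libraries, red lines the mean, and the linear vertical axis gives the level in CPM. Camk2a and Camk2b are highest in granule-like nuclei (means of 1194 and 370), Camk2d in microglia-like nuclei (713) and Camk2g in astrocyte-like nuclei (493).

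To compare the genes with each other, levels were divided by gene span, as CPM per kb. In granule-like nuclei Camk2a stood at 19.1 ± 2.16 CPM per kb, Camk2b at 3.82 ± 0.34, Camk2g at 1.81 ± 0.236 and Camk2d at 0.469 ± 0.153 (n = 13). The same order held for the means in CA1-like nuclei, with 17.9 ± 3.32, 2.14 ± 0.287, 0.826 ± 0.191 and 0.294 ± 0.156 CPM per kb. Astrocyte-like nuclei were led by Camk2g at 8.32 ± 1.69 CPM per kb, ahead of Camk2d at 1.28 ± 0.124, Camk2a at 1.205 ± 0.721 and Camk2b at 0.364 ± 0.179. Microglia-like nuclei were led by Camk2d at 2.85 ± 0.251 CPM per kb, with Camk2g at 1.59 ± 0.534. So granule-like and CA1-like nuclei shared their leading subunit gene, and astrocyte-like and microglia-like nuclei each had another. How well span stands for the number of captured molecules in 3′ libraries was not tested.

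The make-up of the family can also be read as each gene's percent of the UMIs of all 4 in a class, a share that is not per length and is therefore compared between classes only. Camk2a made up 76.9 ± 4.33% of these UMIs in CA1-like, 71.9 ± 2.98% in CA3-like, 66.6 ± 2.85% in granule-like and 45.7 ± 2.36% in inhibitory-like nuclei. Its share was 8.10 ± 4.35% in astrocyte-like and 7.27 ± 4.07% in microglia-like nuclei. Camk2d made up 76.9 ± 7.28% in microglia-like nuclei, 49.0 ± 4.13% in oligodendrocyte precursor-like, 42.0 ± 5.61% in oligodendrocyte-like and 34.9 ± 4.55% in astrocyte-like nuclei. That share was 6.55 ± 2.14% in granule-like nuclei, 5.32 ± 2.97% in CA1-like and 3.83 ± 1.58% in CA3-like nuclei. Camk2g made up 53.1 ± 7.24% in astrocyte-like nuclei and 19.0 ± 4.31% in oligodendrocyte precursor-like nuclei, the next of the glial classes. Per kb of span these shares became 75.6 ± 2.29% for Camk2a in granule-like, 48.0 ± 9.03% for Camk2d in microglia-like and 74.2 ± 7.63% for Camk2g in astrocyte-like nuclei. The leading gene of these 3 classes was the same on both scales. It was not in oligodendrocyte precursor-like nuclei, where Camk2g had the largest mean share per kb (34.2 ± 7.12%). No leading gene is named for oligodendrocyte-like nuclei, where the level of Camk2a is low and the part of free RNA in it was not tested.

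**Figure D2:**
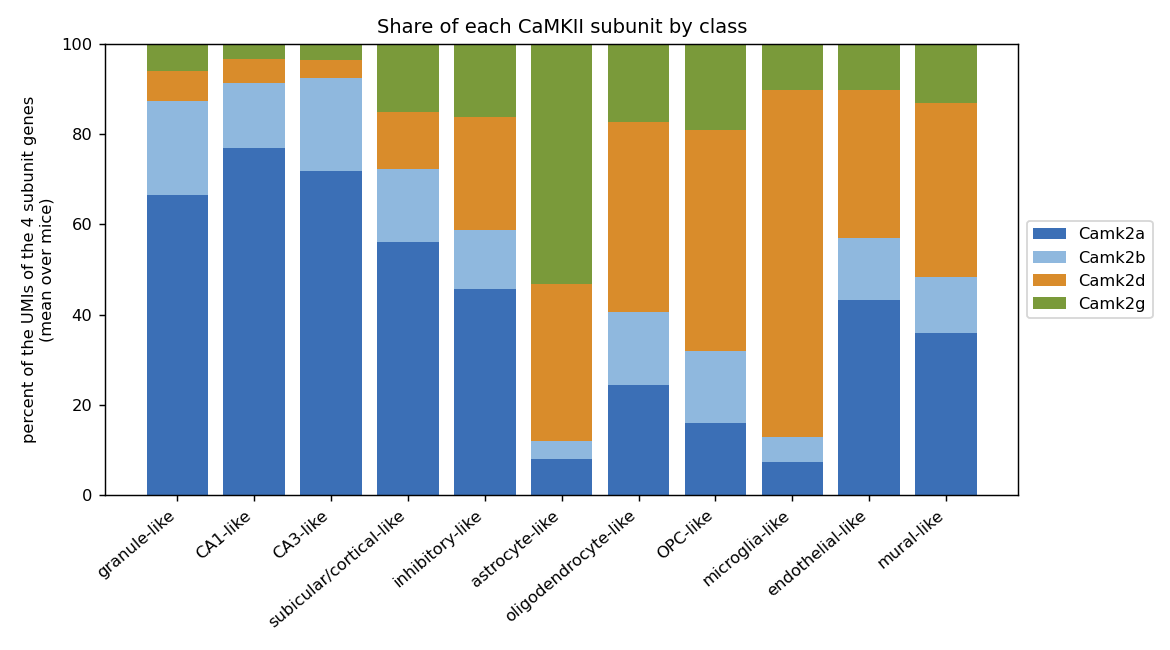
Mean percent of the UMIs of the 4 subunit genes taken by each gene, 1 stacked bar per class. Camk2a fills 76.9% of the bar of CA1-like nuclei, Camk2g 53.1% of that of astrocyte-like nuclei and Camk2d 76.9% of that of microglia-like nuclei.

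Detection per nucleus gave the same picture once depth was made equal. Nuclei were thinned to 1500 UMIs each, and shallower nuclei were left out. A library gave a share only where at least 20 thinned nuclei of the class remained. Shares of small or shallow classes thus rest on fewer libraries than their levels. A Camk2a UMI was then seen in 79.4 ± 3.13% of granule-like and 77.6 ± 6.52% of CA1-like nuclei, against 98.9% of granule-like nuclei before thinning. In oligodendrocyte-like nuclei the share was 7.16 ± 2.57%, and in microglia-like nuclei 7.49 ± 4.93%. It was higher in astrocyte-like (9.63 ± 4.71%), fibroblast-like (11.4 ± 3.90%), endothelial-like (19.5 ± 10.4%) and macrophage-like nuclei (38.4 ± 14.5%). The macrophage-like share was above that of inhibitory-like nuclei (34.4 ± 4.07%). How much of the shares of these non-neuronal classes free RNA gives was not tested, and they are not read as expression. Median depths were 6338 UMIs in granule-like, 1884.5 in oligodendrocyte-like and 1402 in microglia-like nuclei. A Camk2d UMI was seen in 61.3 ± 4.24% of thinned microglia-like nuclei (61.2% before thinning), in 35.4 ± 3.50% of astrocyte-like and in 6.12 ± 2.15% of CA3-like nuclei. This rests on the deeper microglia-like nuclei, since 981 were too shallow to thin and 646 were deep enough. Not all of the 646 entered the mean, because libraries with fewer than 20 of them gave no share. A Camk2g UMI was seen in 48.0 ± 6.79% of astrocyte-like (66.9% before thinning) and 5.19 ± 1.37% of oligodendrocyte-like nuclei.

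Across the sums of tested classes and libraries, Camk2a and Camk2b varied together and apart from Camk2d. Pearson's r of log2 CPM was 0.92 for Camk2a with Camk2b, -0.54 for Camk2a with Camk2d and 0.48 for Camk2d with Camk2g, each over 134 sums that share libraries and are not independent. Among 1264 genes that passed the low-count filter in all 11 tested classes, those most like Camk2a were Grin2a (r = 0.943), Grin2b (0.932), Ryr2 (0.927), Elmod1 (0.901) and Cnksr2 (0.900). Grin2a and Grin2b encode NMDA receptor subunits, and Ryr2 encodes a calcium release channel of internal stores. Camk2b (125 sums, 10 classes, 1446 genes) was most like Camk2a (0.923), Nell2 (0.921), Ryr2 (0.911), Nsf (0.903) and Slit3 (0.895). Camk2d was most like Cux1 (0.858), Zfhx3 (0.849), Tmem164 (0.839), Ttc28 (0.817) and Etv6 (0.815), of which Cux1, Zfhx3 and Etv6 encode transcription factors. Camk2g was most like Fars2 (0.773), Msi2 (0.769), Sparcl1 (0.745), Hdac8 (0.736) and Pitpnc1 (0.727). Sparcl1 encodes a matrix protein secreted by astrocytes.

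CA1-like nuclei came from 2 clusters that differed in Camk2d. Pooled over the class, Camk2d was between 10.6 and 141 CPM. In the cluster led by Stac, Man1a and Chrm3 (cluster 4, 5230 nuclei) it was at 7.88 ± 1.63 CPM, with a range of 4.55 to 10.1 over 13 libraries. In the cluster led by Pde11a, Dcn, Fibcd1 and Npr3 (cluster 5, 4051 nuclei) it was at 143 ± 57.2 CPM, with a range of 37.0 to 233. The ranges of the clusters did not overlap. Camk2a was at 1396 ± 177 CPM in the first and 815 ± 179 in the second, Camk2b at 246 ± 29.95 and 159 ± 17.5, and Camk2g at 42.4 ± 11.04 and 59.1 ± 12.9. Since the clusters were made from these nuclei, their differences are a description.

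The second CA1-like cluster made up between 12.99% and 72.5% of the CA1-like nuclei of a library. The 3 libraries with the smallest part of it, old ad libitum 1 (16.1%), acute restriction 2 (14.5%) and young 3 (12.99%), had pooled Camk2d levels of 40.3, 10.6 and 17.8 CPM. The library with the largest part, long-term restriction 4 (72.5%), had 141 CPM. The fitted group differences of Camk2d in CA1-like nuclei had wide SEs, at 0.09 ± 0.73 (log2, ± SE) for ageing, 0.68 ± 0.68 for long-term and 0.26 ± 0.72 for acute restriction. Without the libraries numbered 1 they were 0.58 ± 1.07, 0.67 ± 0.96 and -0.56 ± 1.05, so that the acute value changed sign. The mix of clusters moved with these values, and its part in them was not tested.

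**Figure D3:**
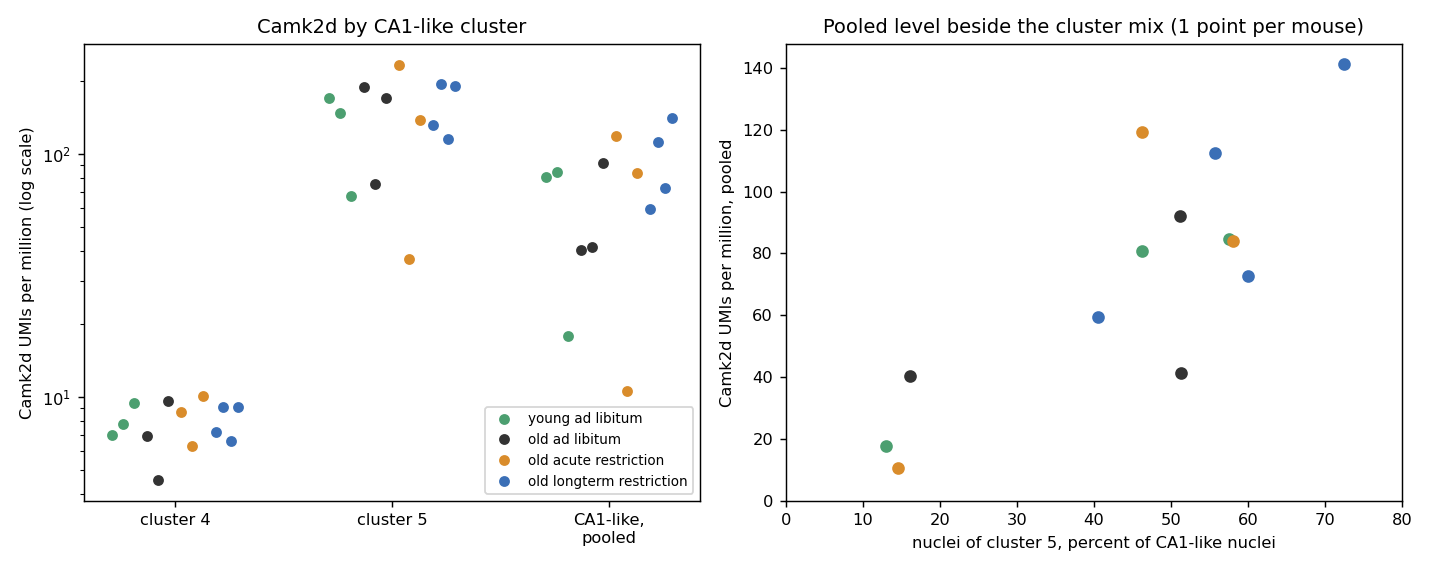
Left, Camk2d in CPM on a log axis in each library for cluster 4, cluster 5 and the pooled CA1-like class; right, the pooled level against the percent of CA1-like nuclei in cluster 5. Cluster 4 lies between 4.55 and 10.1 in all libraries, cluster 5 between 37.0 and 233, and the pooled level is lowest in libraries with few cluster 5 nuclei.

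By means over libraries, the highest Camk2d after microglia-like nuclei was found outside the named classes. An unnamed cluster led by Cpa6, Esr2 and Il1rapl2, with the CA1 marker Wfs1 and with Dcn among its 10 leading genes, held 686 ± 53.0 CPM of Camk2d over 11 libraries, from 602 to 760. Its level was close to the 713 CPM of microglia-like nuclei, which lay lower when nuclei were pooled over libraries (704 against 712 CPM). A UMI was seen in 61.5 ± 6.08% of the thinned nuclei of this cluster. The young libraries (602 to 712 CPM) overlapped there with each of the 3 old groups. Other unnamed clusters also held more Camk2d than the named excitatory classes: 386 ± 144 CPM in cluster 15 (led by Glra3), 375 ± 93.6 in cluster 19 (led by Cntn6, n = 13 each) and 453 ± 73.9 in cluster 26 (n = 7). These clusters were picked out after their values had been seen.

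In granule-like nuclei, the principal neurons of the dentate gyrus, Camk2d separated young from old libraries. Young libraries 1, 2 and 3 held 50.7, 55.0 and 51.1 CPM, and old ad libitum libraries 1, 2 and 4 held 136, 147 and 147 CPM. Acute restriction libraries held 148, 152 and 122 CPM, and long-term restriction libraries 129, 121, 130 and 136 CPM. All 10 old libraries lay above all 3 young ones, with no value between 55.0 and 121 CPM. Group means were 52.3 ± 2.35 CPM in young, 144 ± 6.24 in old ad libitum, 141 ± 16.02 in acute and 129 ± 5.94 in long-term restriction libraries. The counts behind these were 750 to 1013 UMIs per young and 1217 to 3601 per old ad libitum library.

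The ratio of the mean CPM of old to young ad libitum libraries was 2.75. The fitted log2 fold change was 1.62 ± 0.11 (± SE), with composition factors (TMM) that raised ageing fold changes in this class by a median of 0.15 over those of CPM. Restricted old mice against young mice gave 1.59 (acute) and 1.48 (long-term) on the same scale. These share the young libraries with ageing and are an added description. Without the libraries numbered 1 the ageing value was 1.65 ± 0.15, and the ratio of old to young was 2.69 within libraries numbered 1 and 2.78 within the others. This difference led to the choice of the family, so no test is attached to it.

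Nuclei of the old ad libitum libraries were deeper, with median UMIs of 7009 to 12794 in granule-like nuclei against 3866 to 6444 in young libraries. The acute restriction libraries (5646 to 6933) overlapped the young ones in depth, and their Camk2d level was 122 to 152 CPM. The part of depth in the difference was not tested beyond the values that follow. With nuclei thinned to 1500 UMIs, a Camk2d UMI was seen in 6.56% to 6.88% of young and 15.8% to 20.0% of old granule-like nuclei, and unthinned in 16.8% to 22.4% and 42.0% to 67.4%. With nuclei of 2000 to 6000 UMIs only, which left 2 old ad libitum libraries, the fitted value was 1.58. With median UMIs as a covariate it was 1.53. Removing a trend of fold change with gene length lowered it to 1.34. Camk2d made up 2.83% to 3.34% of the UMIs of the 4 genes in young and 5.78% to 9.01% in old libraries.

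Markers of the named classes with the highest Camk2d, which are microglia-like, fibroblast-like, macrophage-like, mural-like and astrocyte-like nuclei, were summed in granule-like nuclei. The unnamed clusters with high Camk2d have no marker list and were not covered. The part of RNA from other cells in the Camk2d difference was not tested. The summed level of 8 microglial markers in granule-like nuclei was 51.7 to 223 CPM in young, 32.2 to 56.0 in old ad libitum, 36.3 to 88.8 in acute and 37.9 to 79.9 in long-term restriction libraries, against a median of 8540 in microglia-like nuclei. That of 8 astrocyte markers was 902 to 1114 CPM in young and 849 to 1080 in old ad libitum libraries. Fibroblast markers summed to 7.74 to 15.3 CPM in young and 5.72 to 7.74 in old ad libitum libraries, macrophage markers to 4.91 to 14.2 and 4.93 to 7.46, and mural markers to 12.8 to 29.5 and 9.31 to 11.1. No marker of these lists was at 0 over all libraries.

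The class is made of 2 clusters whose mix also differed with age. Cluster 0, led by Dsp, Npnt and Il1r1, made up 70.6% to 86.9% of granule-like nuclei in young and 28.9% to 51.2% in old ad libitum libraries, and cluster 1, led by Trpc6, the rest. Within cluster 0 alone the mean Camk2d level was 53.3 ± 2.12 CPM in young and 149 ± 6.21 in old ad libitum libraries, and within cluster 1 alone 47.6 ± 2.16 and 139 ± 9.98. Their fitted ageing values were 1.64 ± 0.11 and 1.66 ± 0.13, beside 1.62 in the pooled class. The part of the mix in the pooled difference was not tested. The young and old ad libitum libraries overlapped in neither cluster.

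Clusters 8, 9 and 22 had no class name but held Prox1, a transcription factor of granule neurons, at 255, 310 and 259 CPM, against 338 and 252 in clusters 0 and 1. Prox1 was also at 231 CPM in cluster 2, which is oligodendrocyte-like, and at 160 in the inhibitory-like cluster 16, so that its level alone does not mark a granule neuron. The 3 clusters too showed higher Camk2d in old than in young ad libitum libraries, at 135 ± 28.6 against 46.8 ± 6.57 CPM in cluster 8, 125 ± 17.1 against 36.6 ± 9.10 in cluster 9 and 115 ± 24.2 against 54.2 ± 14.5 in cluster 22. The fitted values were 1.59 ± 0.17, 1.88 ± 0.16 and 1.15 ± 0.30, and the groups overlapped in none of the 3. Cluster 9, led by Ano2, Trhr and Stk32b, was the one where both restricted groups lay below old ad libitum libraries: 108 to 142 CPM in the latter, 90.6 to 99.3 under acute and 91.9 to 108 under long-term restriction. Its fitted differences were -0.40 ± 0.15 and -0.31 ± 0.14, and neither passed the test across genes of that cluster. Splitting the fit by cluster was chosen after seeing the data.

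**Figure D4:**
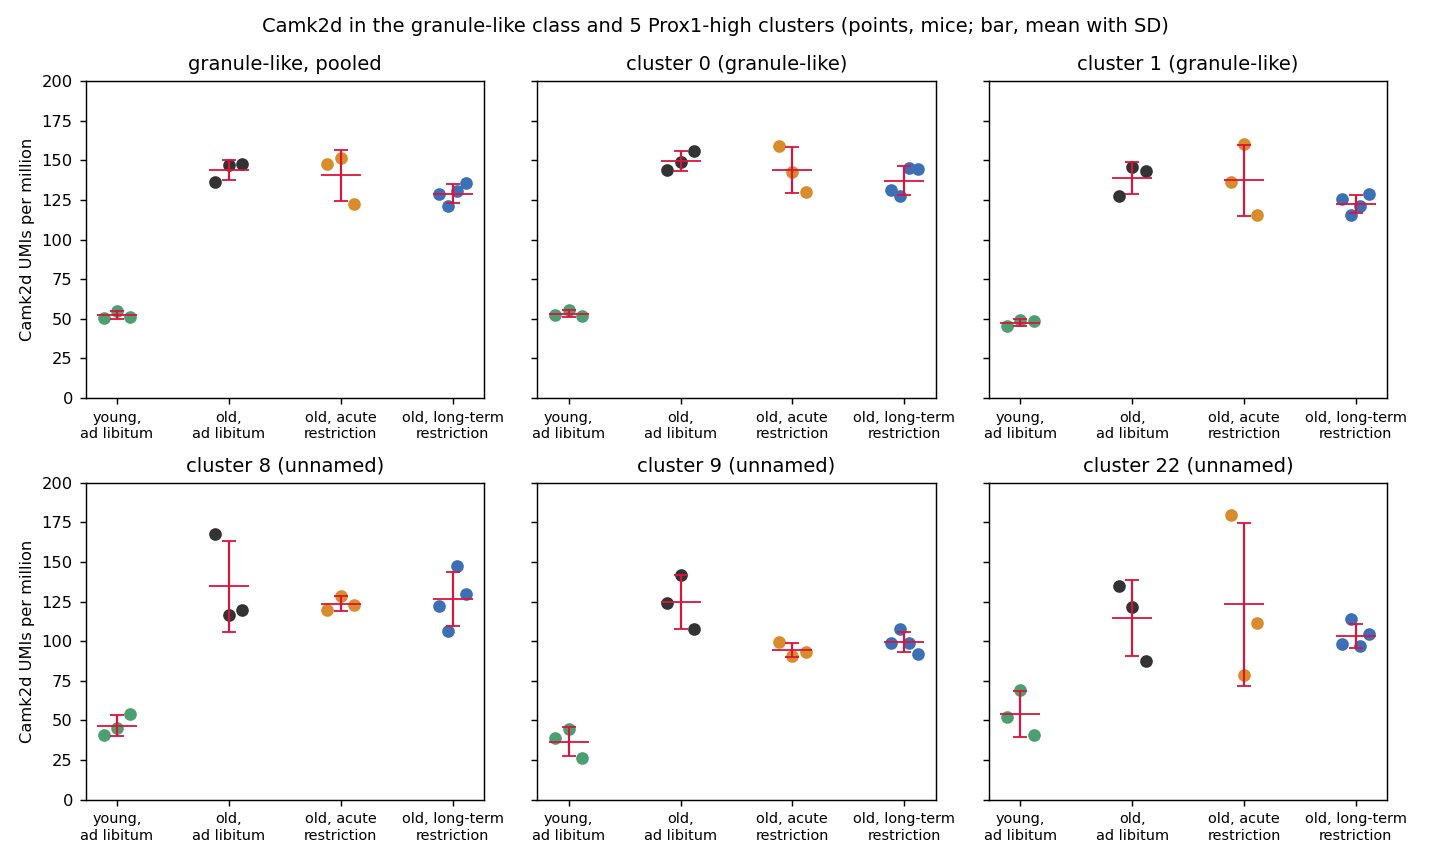
Camk2d in CPM by group in the pooled granule-like class and in clusters 0, 1, 8, 9 and 22: points are libraries, bars the mean ± SD. In each panel the young libraries lie below the old ad libitum ones, with pooled means of 52.3 and 144.

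Elsewhere Camk2d differed less with age. In subicular or cortical excitatory-like nuclei young libraries held 71.5, 90.2 and 83.6 CPM and old ad libitum libraries 122, 133 and 156, which did not overlap, and the fitted value was 0.91 ± 0.24. Inhibitory-like nuclei (141 to 143 CPM in young, 157 to 182 in old ad libitum libraries) gave 0.37 ± 0.11 and oligodendrocyte precursor-like nuclei 0.37 ± 0.14, also without overlap. Microglia-like nuclei had the highest level of the gene among the named classes. Their young libraries held 821, 600 and 657 CPM and old ad libitum libraries 774, 695 and 690, which overlapped, with a fitted value of 0.08 ± 0.17. Astrocyte-like (0.08 ± 0.14), CA3-like (-0.02 ± 0.38) and oligodendrocyte-like nuclei (-0.16 ± 0.17) also overlapped. Whether the difference with age itself differed between classes was not tested.

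The fitted ageing value was positive in 9 of 10 classes for Camk2g, 9 of 11 for Camk2d, 9 of 11 for Camk2a and 7 of 10 for Camk2b, with medians of 0.41, 0.09, 0.16 and 0.10. By the ratio of mean CPM, without composition factors, it was 9 of 10, 8 of 11, 7 of 11 and 5 of 10, with log2 medians of 0.33, 0.07, 0.04 and 0.00. These classes share libraries. For Camk2g, in astrocyte-like nuclei young libraries held 422, 325 and 348 CPM and old ad libitum libraries 514, 537 and 685. The groups did not overlap, and the fitted value was 0.67 ± 0.14. In granule-like nuclei Camk2g was at 96.8, 87.9 and 98.8 CPM in young and 110, 134 and 119 in old ad libitum libraries, again without overlap (0.51 ± 0.14). Inhibitory-like (0.40 ± 0.10) nuclei likewise had non-overlapping groups, while those of subicular or cortical excitatory-like nuclei (0.53 ± 0.16) overlapped. Its 1 negative value was in microglia-like nuclei (-0.20 ± 0.37).

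Depth and other markers moved with the astrocytic value. Median UMIs of astrocyte-like nuclei were 1627.5 to 2546 in young and 2854.5 to 5024.5 in old ad libitum libraries, and the summed level of 6 inhibitory neuron markers was 208 to 299 and 398 to 569 CPM, against 12738 in inhibitory-like nuclei. Inhibitory-like nuclei held less Camk2g (106 CPM) than astrocyte-like nuclei of any library. The subunit genes that are highest in neurons had negative fitted values there over all libraries. Camk2a was at 61.0 to 201 CPM in young and 48.1 to 131 in old ad libitum libraries (-0.16 ± 0.48). Camk2b was at 39.9 to 84.8 and 20.7 to 50.2 CPM (-0.55 ± 0.36), and the groups overlapped for both genes. Without the libraries numbered 1 the value of Camk2a changed sign (0.10 ± 0.26), and that of Camk2b was -0.89 ± 0.36. With median UMIs as a covariate the fitted value of Camk2g was 0.50 ± 0.19. The part of depth and of neuronal RNA in the astrocytic difference was not tested further.

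The levels of Camk2a and Camk2b in granule-like nuclei overlapped between young and old ad libitum libraries. Camk2a was at 1088, 1125 and 1229 CPM in young and 1090, 1201 and 1017 in old ad libitum libraries, and Camk2b at 416, 379 and 425 against 399, 384 and 353. The fitted values were 0.10 ± 0.12 and 0.05 ± 0.10, and the ratios of mean CPM had the opposite sign, so that no direction is given for either. The mix of clusters differed between these groups, as given above. Mean Camk2a was 1448 CPM in cluster 0 and 918 in cluster 1, and Camk2b 448 and 280. The part of the mix in the pooled values was not tested. Within cluster 0 the fitted ageing values were 0.33 ± 0.13 for Camk2a and 0.29 ± 0.10 for Camk2b, and within cluster 1 they were 0.26 ± 0.13 and 0.22 ± 0.09. These are on the fitted scale only, where composition factors raised ageing fold changes of the pooled class by a median of 0.15. No direction is read from them either.

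Over all classes, 42 of the 44 pairs of subunit gene and class passed the filter on low counts, the exceptions being Camk2b and Camk2g in endothelial-like nuclei. For ageing 2 of these 42 lay past the threshold used for all genes, an adjusted p below 0.05 in edgeR's quasi-likelihood test. They were Camk2d in granule-like and Camk2g in astrocyte-like nuclei, both higher in old libraries. Since the family was chosen on this contrast, the count is not a test of its members and nothing is read from it. Over all genes and classes 1.71% passed. In granule-like nuclei 4.24% of genes passed and 3.12% were higher in old libraries, and in astrocyte-like nuclei these shares were 0.383% and 0.314%. DESeq2 called 6 of the 42, against 3.61% of all pairs. The median fitted value was 0.17 over the 42 and -0.02 over all pairs, which were not matched to the subunit genes in level or gene length. The count fell to 1, with Camk2g in astrocyte-like nuclei no longer past the threshold, when any 1 of these 8 libraries was left out: acute restriction 2 or 3, old ad libitum 2 or 4, long-term restriction 2 or 4, and young 2 or 3. The count was 4 without long-term restriction 3. Over all 13 single omissions the fitted value of Camk2g in astrocyte-like nuclei lay between 0.58 and 0.75. It was also not past the threshold with the gene length trend removed or with median UMIs as a covariate. The same held with nuclei of 2000 to 6000 UMIs and with only the groups of the contrast.

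**Figure D5:**
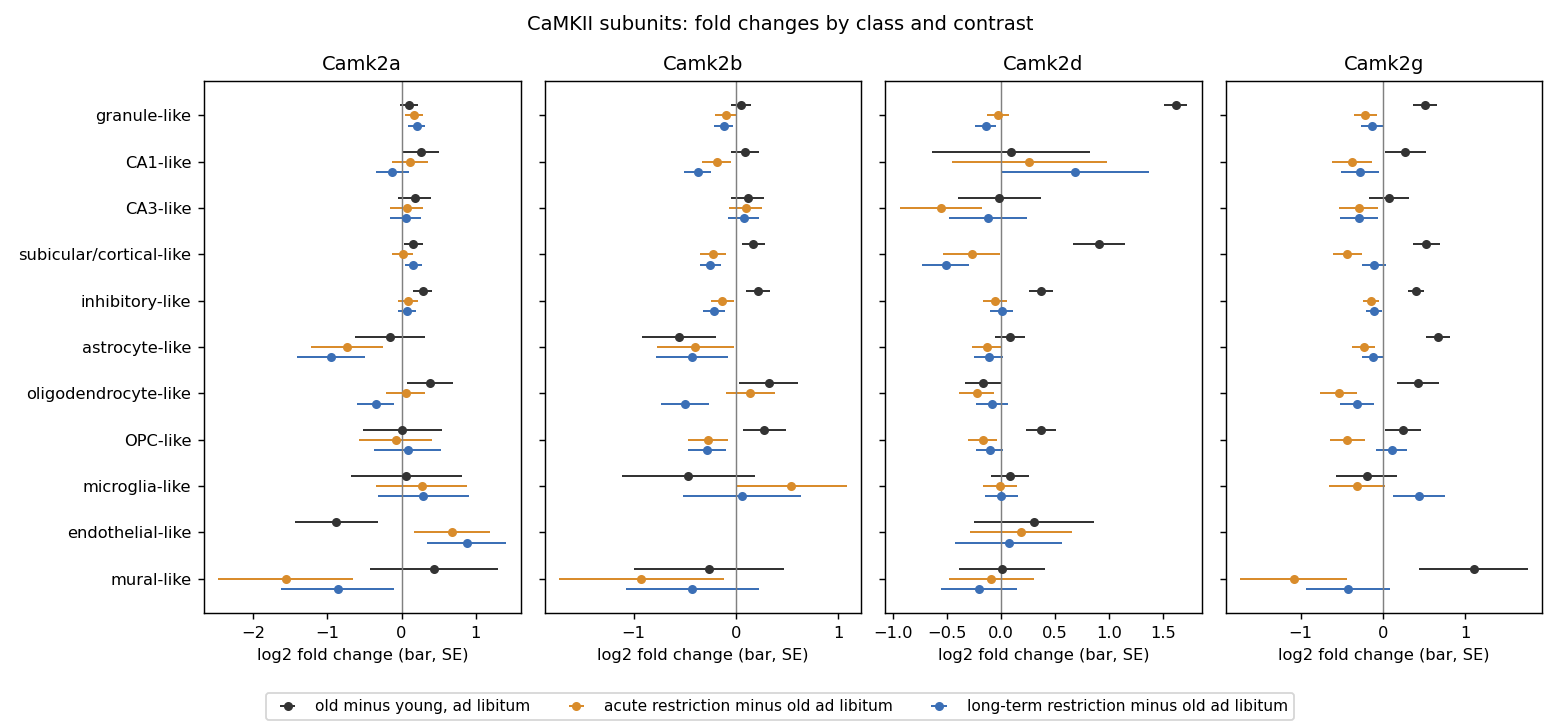
Fitted log2 fold change ± SE of each subunit gene by class for ageing (black), acute restriction (orange) and long-term restriction (blue), with a line at 0. The ageing value of Camk2d in granule-like nuclei, 1.62, is the highest shown, and the restriction values lie on both sides of 0.

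The question of the restricted groups is whether less food, started late or early, changes expression in the old hippocampus. For the CaMKII subunits no such change passed the test. With long-term restriction, 0 of 42 pairs passed in edgeR's quasi-likelihood test, where 0.0532% of all pairs did, and 4 had an unadjusted p below 0.05 (5.11% of all pairs). With acute restriction 0 of 42 passed (0.226% of all pairs) and 3 were below 0.05 unadjusted (5.10%). Between long-term and acute restriction 0 of 42 passed (0.0138%) and 3 were below 0.05 unadjusted (2.93%). DESeq2 called 0 in each comparison, where it called 0.0743%, 0.185% and 0.0101% of all pairs. The smallest Benjamini-Hochberg adjusted p values from edgeR were 0.483, 0.297 and 0.522.

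In granule-like nuclei the Camk2d levels of all restricted libraries (121 to 152 CPM) lay above those of all young ones (50.7 to 55.0 CPM). The long-term group was the lower one, with its 4 libraries (121 to 136 CPM) all below the 3 old ad libitum ones (136 to 147 CPM) by a narrow margin, 135.5 against 136.5 CPM at the nearest. The fitted difference was -0.14 ± 0.10 (95% interval -0.35 to 0.07, edgeR adjusted p = 0.999). For acute restriction the groups overlapped and the difference was -0.03 ± 0.10 (-0.25 to 0.19, edgeR adjusted p = 0.999). These intervals leave room for a decrease of up to 0.35 and 0.25, beside an ageing value of 1.62. The restriction and ageing values share the old ad libitum libraries on which the family was chosen. Long-term and acute restriction differed by -0.11 ± 0.10 (-0.32 to 0.10). In subicular or cortical excitatory-like nuclei the long-term libraries held 97.5, 69.7, 137 and 77.5 CPM of Camk2d, overlapping the 122 to 156 of old ad libitum libraries. The fitted difference was -0.51 ± 0.21 (95% interval -0.98 to -0.05, edgeR adjusted p = 0.782), and over the alternatives it lay between -0.77 and -0.37. The lowest of these, without long-term restriction 3, had an edgeR adjusted p = 0.0685.

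Camk2g in astrocyte-like nuclei also gave no call under restriction. Acute restriction libraries held 485, 541 and 444 CPM and long-term libraries 457, 480, 626 and 539, which overlapped with the 514 to 685 of old ad libitum libraries. The fitted differences were -0.23 ± 0.14 for acute (edgeR adjusted p = 0.917) and -0.12 ± 0.13 for long-term restriction (adjusted p = 1.00). The acute difference of Camk2g was negative in 10 of 10 classes, from -1.09 to -0.14 with a median of -0.35, and the long-term one in 8 of 10 with a median of -0.13. These classes come from the same libraries, so they are not independent, and no such count is given here for other genes. Camk2d in microglia-like nuclei overlapped between old ad libitum libraries and both restricted groups, with 0.00 ± 0.15 for long-term and -0.01 ± 0.16 for acute restriction.

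The fitted long-term value of Camk2b was negative in 8 of 10 classes with a median of -0.27, and no class passed. Its acute value was negative in 7 of 10 classes with a median of -0.16, again without a call. These classes share libraries and are not independent, and no count of this kind is given here for other genes. Some sums of old libraries held few Camk2b UMIs, down to 6 in astrocyte-like, 2 in microglia-like and 1 in mural-like nuclei. In CA1-like nuclei old ad libitum libraries held 244, 222 and 211 CPM and long-term libraries 184, 197, 159 and 176, which did not overlap. Acute restriction libraries did not overlap the old ad libitum ones either, with means of 200 and 226 CPM. The fitted long-term difference was -0.37 ± 0.13 (edgeR adjusted p = 0.961), and -0.33 ± 0.16 without the libraries numbered 1. Cluster 5, the CA1-like cluster with less Camk2b, made up 40.5% to 72.5% of these nuclei in long-term and 16.1% to 51.3% in old ad libitum libraries. The part of this mix in the difference was not tested. In subicular or cortical excitatory-like nuclei, 155, 145 and 140 CPM in old ad libitum libraries stood against 128, 133, 104 and 129 in long-term ones (-0.25 ± 0.10, edgeR adjusted p = 0.773). The 2 acute restriction libraries there did not overlap the old ad libitum ones either, with means of 128 and 147 CPM. Of the 42 tested pairs, levels did not overlap in 4 for long-term, 7 for acute and 1 for long-term against acute restriction. Groups this small can part by chance, and the share over all genes is not given here. The lowest adjusted p for long-term restriction belonged to Camk2b in oligodendrocyte-like nuclei (-0.50 ± 0.23, edgeR adjusted p = 0.483), where old ad libitum libraries held 39.6, 39.6 and 33.5 CPM and long-term libraries 20.9 to 33.9, which overlapped. For acute restriction it belonged to Camk2g in oligodendrocyte-like nuclei (-0.54 ± 0.22, edgeR adjusted p = 0.297). The oligodendrocyte-like sums of old libraries held 7 to 171 Camk2b and 9 to 164 Camk2g UMIs. Camk2g in microglia-like nuclei did not overlap between long-term (79.1 to 189 CPM) and acute libraries (64.7 to 75.7 CPM), with a difference of 0.75 ± 0.29 (edgeR adjusted p = 0.999). Those levels rest on few counts, 8 to 29 Camk2g UMIs per old library. Camk2a had positive values in 7 of 11 classes for long-term and 8 of 11 for acute restriction, and in granule-like nuclei they were 0.21 ± 0.12 and 0.17 ± 0.12. In astrocyte-like nuclei, where its level is low, they were -0.95 ± 0.46 (edgeR adjusted p = 0.953) and -0.74 ± 0.49 (edgeR adjusted p = 0.948), and the groups overlapped.

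The genes around the kinase were taken from a list of 33: its endogenous inhibitors, the calmodulin genes, calmodulin-binding buffers, other calmodulin-dependent kinases, opposing phosphatases, and receptors, substrates and anchors. They gave 287 pairs of gene and class. For ageing 7 pairs (2.44%) were called, all higher in old libraries, beside 1.71% of all pairs, and edgeR and DESeq2 differed, with 17 in the latter. The 7 became 0 with median UMIs as a covariate, and 1 each with the gene length trend removed, without old ad libitum 2 or without young 2. They became 24 with the replicate numbers as a block, 19 with a term for the libraries numbered 1 and 12 without the low-count filter. With doublets retained they became 4 and with nuclei of 2000 to 6000 UMIs 2. Without long-term restriction 3 they became 11, and without acute restriction 3 or young 3 they became 3. Without acute restriction 1 or 2 they became 4. Among the 31 list genes tested in granule-like nuclei, 3 were called, all higher, where 4.24% of all genes were called and 3.12% were higher in old libraries. Camk1d, a relative of the kinase that acts as a monomer, was at 8.46 ± 0.06 log2 CPM in young and 9.11 ± 0.06 in old ad libitum libraries (0.64 ± 0.09). Gria1, an AMPA receptor subunit phosphorylated by CaMKII, gave 11.25 ± 0.14 and 11.76 ± 0.07 (0.50 ± 0.13), and Grin2a 11.49 ± 0.05 and 11.90 ± 0.06 (0.41 ± 0.10). The other 4 calls lay in oligodendrocyte-like nuclei, where 7.84% of all genes were called and 3.66% were higher in old libraries. These calls are named here after their values were seen. They were Gria1 (1.23 ± 0.34), Grin2a (1.70 ± 0.39), Lrrc7 (1.79 ± 0.44) and Ppp3ca (0.55 ± 0.15). Lrrc7 encodes the postsynaptic anchor densin, and Ppp3ca a catalytic subunit of calcineurin. In young and old ad libitum libraries alike, all 4 genes had lower mean log2 CPM there than in granule-like nuclei. Median UMIs of oligodendrocyte-like nuclei were 1182 to 1661 in young and 1988 to 3169 in old ad libitum libraries. The part of depth and of free neuronal RNA in these 4 calls was not tested. They are not read as a change of expression in oligodendrocytes.

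By role, the inhibitor genes Camk2n1 (-0.03 ± 0.28) and Camk2n2 (-0.63 ± 0.53) and the buffer Nrgn (-0.37 ± 0.28), which encodes neurogranin, had loose ageing values in granule-like nuclei. Over all classes the median ageing value was -0.33 over 16 pairs for the inhibitors and -0.18 over 27 for the buffers, and none of these pairs was called. Receptors, substrates and anchors had a median of 0.27 over 91 pairs, phosphatases 0.05 over 61 and other kinases -0.05 over 62. Over all 31 list genes in granule-like nuclei the median was 0.06, with 16 positive. Under restriction 0 of 287 list pairs were called by edgeR in each of the 3 comparisons, with 17, 9 and 7 below 0.05 unadjusted for long-term, acute and long-term against acute restriction, and 0 by DESeq2. The long-term count was 4 with the replicate numbers as a block, which the labels give no meaning, and 3 without the low-count filter. It was 2 without long-term restriction 3, 1 with doublets retained and 1 without the libraries numbered 1. The acute count was 1 with doublets retained.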

How the data were processed

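The submitters deposited UMI counts per gene and barcode for each library, made with Cell Ranger 4.0.0 on mm10 per the submitters' processing notes; intron and strand settings are not given in the sources used here. All values were computed from these counts. Barcodes needed 500 or more genes and no more than 5% mitochondrial UMIs (105427 passed), the highest scrublet scores of each library were removed as doublets (7386), and the rest was clustered with scanpy 1.11.5 and leidenalg 0.10.2 (2000 variable genes, 30 components, 20 neighbours, resolution 1). Clusters were named from fixed markers (at least 3 raised), and 20803 nuclei in 16 unnamed clusters entered no class. Counts were summed per library and class (at least 20 nuclei, at least 2 libraries per group, 11 classes; 2 acute restriction libraries in subicular or cortical excitatory-like nuclei). Sums were tested on all genes with edgeR 4.0.16 (TMM, filterByExpr, robust quasi-likelihood; R 4.3.3), with Benjamini-Hochberg adjustment within a class. DESeq2 1.42.0 was an alternative, and the edgeR script was tested on simulated data. Log2 CPM used a prior count of 2. Gene spans came from GENCODE on GRCm38. The members and lists were chosen with earlier results of these data known. Named were the 4 members in every tested class, list genes called in granule-like nuclei for ageing or in any class for restriction, and the 5 genes most correlated with each member. Alternatives changed the filter, the scaling, the depth, the doublets, the libraries used and the replicate block. No protein sequences were used here, and values of one role of the list are not reported here.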

Additional observations from a re-analysis of the deposited data

Results flagged for a closer look

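Within the long-term restriction group of 4 libraries, 5 sums held 1 library far from the other 3, by Dixon's ratio of the gap to the range at a 95% critical value of 0.829. In all 36 groups were tested, and chance alone gives about 1 in 20. In subicular or cortical excitatory-like nuclei Camk2a was at 590.556 CPM in library 2, against 466.5, 480.9 and 481.6 in the others. In the same class Camk2b was at 104.087 CPM in library 3, against 128.4, 128.6 and 133. Camk2d was at 191.196 CPM in inhibitory-like nuclei of library 3, against 164.2, 165.1 and 165.6. It was at 67.7142 CPM in oligodendrocyte-like nuclei of library 1, against 86.55, 88.21 and 89. Camk2g was at 26.9444 CPM in CA3-like nuclei of library 1, against 40.79, 40.94 and 43.33.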

How the results depend on the processing

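The ageing values of Camk2d in granule-like and Camk2g in astrocyte-like nuclei were positive in every alternative run. Of the 42 fitted subunit values of each comparison, those that changed sign over the alternatives were 21 for ageing, 18 for long-term, 23 for acute and 27 for long-term against acute restriction. Among them were Camk2d in CA1-like nuclei (-0.38 to 0.58 for ageing, -0.56 to 0.77 for acute restriction), Camk2d in oligodendrocyte-like nuclei (-0.61 to 0.28 for ageing), Camk2a and Camk2b in granule-like nuclei (-0.15 to 0.19 and -0.19 to 0.12 for ageing) and Camk2g in inhibitory-like nuclei (-0.19 to 0.19 for acute restriction). Subunit calls under restriction were 0 in all 23 alternatives of each of the 3 comparisons, the replicate block (0) and the single omissions (0 to 0) included, and the smallest adjusted p over them was 0.0685, for Camk2d in subicular or cortical excitatory-like nuclei with long-term restriction and without its library 3. The 2 of 42 pairs of subunit gene and class past the threshold for ageing, a description since the family was chosen on that contrast, became 6 with DESeq2, 4 without the low-count filter, 4 with a term for number 1, 4 with the replicate block, 1 with median UMIs as a covariate and 1 with only the groups of the contrast. They were 1 to 4 over single omissions, with 4 without long-term restriction 3, and 3 without the libraries numbered 1, an alternative chosen after seeing the data. The fitted ageing value of Camk2d in granule-like nuclei was 1.34 with the gene length trend removed, 1.59 with the block and 1.61 to 1.64 over single omissions. The 7 list calls for ageing became 17 with DESeq2, 4 with doublets retained, 1 with the length trend removed, 0 with the depth covariate, 12 without the filter, 2 with nuclei of 2000 to 6000 UMIs, 24 with the block and 19 with the term for number 1, and were 1 to 11 over single omissions. They were fewest, 1 each, without old ad libitum 2 or without young 2. The 0 list calls for long-term restriction became 1 with doublets retained, 3 without the filter, 4 with the block and 1 without the libraries numbered 1 (0 to 2 over single omissions). Those for acute restriction became 1 with doublets retained (0 to 0 over single omissions). The level of Camk2b in granule-like nuclei was 324 CPM with nuclei of 2000 to 6000 UMIs. Per kb of span the shares of the family became 75.6% (Camk2a) and 15.3% (Camk2b) in granule-like, 48.0% (Camk2d) in microglia-like and 74.2% (Camk2g) in astrocyte-like nuclei. Thinning gave 79.4% and 40.3% of granule-like nuclei with a Camk2a or Camk2b UMI and 48.0% of astrocyte-like nuclei with a Camk2g UMI. The causes of these shifts were not tested.

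The replicate numbers were not taken to pair the libraries, since the labels give them no meaning and not every same-numbered pair deviated together. Deviations of same-numbered libraries in granule-like nuclei correlated from -0.16 to 0.80 over 16 pairs (median 0.38, 11 above 0.1), against a median of -0.13 for other pairs. The 6 pairs numbered 1 lay between 0.39 and 0.80 and the pair numbered 4 at 0.44. Of the libraries, 6 of 13 libraries correlated best with their own number. Clustering without the members gave identical classes, since none of the 4 is among the 2000 variable genes. The restriction to nuclei of 2000 to 6000 UMIs left 6 classes. Depth limits the small classes most: mural-like and endothelial-like sums held few UMIs of the subunit genes, and their fitted values had SEs of up to 0.91.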
